A study of Homo sapiens with 6 samples.

Results

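The mitosis, spindle and kinetochore genes are a list of 54 genes whose products enter, build, check and finish mitosis. They were found by gene symbol, and all 54 were among the 58884 genes of the count table. All 54 also passed the expression filter, which left 16859 genes to test. The RNA came from HL-60, an established line of acute myeloid leukemia cells that carries a RAS mutation. The first group had 3 libraries, numbered 1, 3 and 4, from cells with a short hairpin RNA (shRNA) against EZH2, the histone methyltransferase of Polycomb repressive complex 2. The control group had 3 libraries, numbered 3, 4 and 5, from cells with a scrambled shRNA. Both groups were stable lentiviral lines selected with puromycin, which was washed out 2 days before the experiment. Both were kept for 24 hours in medium with 0.05% serum before polyadenylated RNA was taken. The design text calls the lines knock-out, but the sample labels describe a stable knockdown. The sources do not say if each library had a transduction or culture of its own, and the spread behind every p-value here could be technical.

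EZH2 (GRCh38 chr7:148807383-148884321, minus strand) had 79.5, 83.2 and 77.3 CPM (counts scaled to library size) in EZH2 shRNA libraries 1, 3 and 4, against 147.6, 150.5 and 150.3 CPM in control libraries 3, 4 and 5. The groups did not overlap, and EZH2 mRNA was at 53.5% of the control level (log2 fold change -0.90, SE 0.04, edgeR adjusted p = 3.22e-11). Total counts were between 50809853 and 85074624 in the EZH2 shRNA libraries and between 39717343 and 51622861 in the control libraries. At this depth a count of 0 allows up to 3 counts, or between 0.0353 and 0.0759 CPM, a limit that covers counting error only. Of the 8 markers of the promyelocyte stage that HL-60 resembles, 7 were measured (3 lower, 2 higher), and their summed level was between 9790 and 10190 CPM in the EZH2 shRNA libraries and between 9778 and 10587 CPM in the controls. Nearly all of it was MPO, the granule enzyme myeloperoxidase, while ELANE, neutrophil elastase, averaged 0.14 CPM in the EZH2 shRNA libraries and 0.03 CPM in the controls and did not pass the filter.

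Mitosis begins when the kinase CDK1 is switched on by CDC25 phosphatases, with Aurora and Polo-like kinases acting at centrosomes and centromeres. Chromosomes are packed by condensin and topoisomerase, attached to spindle microtubules at kinetochores, moved by kinesin motors and held under the spindle checkpoint until the anaphase-promoting complex (APC/C) is switched on by CDC20. Most of these genes are transcribed in a wave in G2 and mitosis. The promoters of many carry a cell cycle homology region (CHR), bound by the MuvB complex as part of the repressor DREAM in resting cells and with B-MYB and FOXM1 in dividing cells, and a CCAAT box bound by NF-Y. Because the wave is tied to the cycle, the summed level of such genes in RNA from many cells moves with the share of cells in G2 and mitosis as well as with the level in each cell.

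Promoter windows of 250 bases before to 50 bases after the annotated start, from RefSeq on GRCh38.p14, were on hand for 45 of the 54 genes. For a gene with several starts only the window of the most upstream start was used, so elements near its other starts can be missed. These windows are shown because many of them hold the elements just named, which the choice of the genes did not use. The windows of CENPA (chr2:26785806-26786105, plus strand), among the genes with the largest falls, PLK1 (chr16:23678639-23678938, plus strand), with one of the smallest falls, and CDC25B (chr20:3786701-3787000, plus strand), the only gene that rose, read as follows, 5′ to 3′. Capitals mark CHR matches (TTTGAA or its reverse complement TTCAAA, and TTCGAA, which reads the same on both strands) and CCAAT boxes (CCAAT or ATTGG).
CENPA: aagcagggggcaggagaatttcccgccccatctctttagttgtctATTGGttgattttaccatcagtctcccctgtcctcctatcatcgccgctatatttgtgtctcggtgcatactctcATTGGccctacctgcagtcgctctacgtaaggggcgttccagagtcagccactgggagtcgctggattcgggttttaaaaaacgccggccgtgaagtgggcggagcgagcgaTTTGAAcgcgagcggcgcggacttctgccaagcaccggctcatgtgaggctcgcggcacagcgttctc
PLK1: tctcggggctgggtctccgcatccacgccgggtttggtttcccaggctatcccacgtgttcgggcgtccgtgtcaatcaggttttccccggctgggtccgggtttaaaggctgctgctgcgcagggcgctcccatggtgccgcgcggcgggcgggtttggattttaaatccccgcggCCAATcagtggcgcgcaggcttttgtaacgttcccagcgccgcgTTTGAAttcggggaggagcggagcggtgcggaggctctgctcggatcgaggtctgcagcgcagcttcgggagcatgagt
CDC25B: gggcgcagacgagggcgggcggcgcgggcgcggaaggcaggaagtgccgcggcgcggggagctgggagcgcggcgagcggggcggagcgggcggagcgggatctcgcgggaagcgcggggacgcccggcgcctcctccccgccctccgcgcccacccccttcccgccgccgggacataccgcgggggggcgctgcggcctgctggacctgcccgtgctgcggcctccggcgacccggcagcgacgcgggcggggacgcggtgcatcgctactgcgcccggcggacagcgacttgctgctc

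In CENPA the CHR starts at position -18 relative to the start, with CCAAT boxes at -205 and -130. In PLK1 the CHR starts at -29 and the CCAAT box at -73. CDC25B has no match to either, and holds 2 matches to the E2F motifs searched (TTCCCGC, the variant TTGGCGC, the variant TTCGCGC and the variant TTGCCGC, either strand). A reversed CCAAT box can share bases with TTGGCGC. A further 13 CHR matches, chosen to cover several role groups and genes that fell as well as genes that did not, are given with their flanking bases on the strand of the gene, the CHR in capitals.
CDK1 (chr10:60778160-60778185, plus strand): gtataataaaTTTGAActgtgccaat
CDCA8 (chr1:37692483-37692508, plus strand): gactgtggagTTTGAAttgggtggcg
INCENP (chr11:62123991-62124016, plus strand): agccttcagtTTTGAAaatcatagtt
BUB1 (chr2:110678047-110678072, minus strand): gcgcggggtaTTCGAAtcggcggcgg
BUB1B (chr15:40161036-40161061, plus strand): gaccgttaaaTTTGAAacttggcggc
MAD2L1 (chr4:120066809-120066834, minus strand): cgtcgttactTTTGAAacgcttggcg
ESPL1 (chr12:53268258-53268283, plus strand): gccgcggataTTTGAAaggagggtct
NUF2 (chr1:163321960-163321985, plus strand): aggcggcaagTTTGAAaagtgatgac
KIF14 (chr1:200620735-200620760, minus strand): ggggcgcccaTTCAAAttgcggcctt
KIF15 (chr3:44761749-44761774, plus strand): aagcgccaaaTTCAAAtttgcggcca
KIF22 (chr16:29790714-29790739, plus strand): caccggggaaTTCGAAtgggagaggc
KIF23 (chr15:69414284-69414309, plus strand): gattggcccgTTTGAAatgcgccagg
NCAPG (chr4:17810934-17810959, plus strand): gcgggaattaTTTGAAcgttcgagcg

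A CHR match was present in 33 of 45 windows (73.3%), against 11.3% of the 9772 windows of genes that passed the filter and 16.7% of all 27305 windows. Only the letters given above were searched, so a gene without a match may hold another form of the CHR. In 28 genes it began within 50 bases of the start. A CCAAT box was found in 32 windows (71.1%, against 36.9% of the windows of genes that passed the filter and 35.7% of all windows). Both elements stood together in 24 windows (53.3%, against 4.83% and 6.63%). E2F motifs were found in 14 windows (31.1%, against 20.7% of the windows of genes that passed the filter and 3550 of all 27305). The 33 genes with a CHR match had a median log2 fold change of -0.40 and 28 of them fell. The 12 without a match had a median of -0.29 and 11 of them fell, and these 12 are not shown to lack a CHR. All 5 genes with a window that did not pass the test carried a CHR match. These matches are descriptions of letters in a window, and no match was tested as a site.

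**Figure D1:**
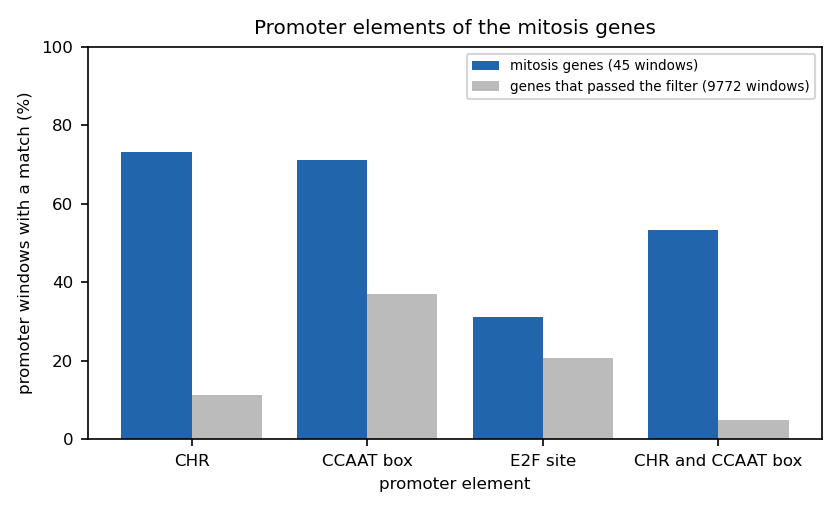
Share of promoter windows (300 bases, percent of windows) with a match to each element, for the 45 mitosis genes with a window (blue) and the 9772 windows of genes that passed the expression filter (grey). A CHR was in 73.3% of the mitosis gene windows and in 11.3% of the 9772 windows, which include those of the mitosis genes. CHR and CCAAT box stood together in 53.3% and 4.83%.

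Of the 54 genes, 47 fell in the EZH2 shRNA cells, 1 rose (CDC25B) and 6 did not pass (BIRC5, MAD2L1, KIF22, KIF23, PRC1 and NUSAP1). Calls are at an adjusted p under 0.05 by the quasi-likelihood test of edgeR. Among all genes tested, 22.9% fell and 23.8% rose, while 87.0% of the mitosis genes fell. Among genes at or above the level of the lowest of the 54 genes, 29.4% fell and 27.1% rose. That cut is set by PRC1 alone (mean log2 CPM 1.66), so these genes were not matched in level to the rest of the 54. The falls were shallow. Their median log2 fold change was -0.38, against 0.01 for all genes tested, and no gene reached -1. In 12 genes the fold change was at or below -0.5, in 27 between -0.5 and -0.25 and in 13 between -0.25 and 0. For 48 genes every EZH2 shRNA library lay below every control library, as did 27% of all genes tested, and for 1 gene every EZH2 shRNA library lay above, as did 27.9% of all genes. In bulk RNA, fewer cells in G2 or mitosis and less mRNA per cell cannot be told apart.

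The lower level was present in each EZH2 shRNA library. The 54 genes summed to 4463, 4319 and 4440 CPM in EZH2 shRNA libraries 1, 3 and 4, against 5598, 5556 and 5682 CPM in control libraries 3, 4 and 5. They took 0.437%, 0.435% and 0.443% of all counts in the EZH2 shRNA libraries, against 0.557%, 0.561% and 0.573% in the controls. Set against the control mean of each gene on the log2 scale, the median of the 54 genes was -0.32, -0.42 and -0.37 in EZH2 shRNA libraries 1, 3 and 4, with 52, 52 and 53 genes below that mean. Levels per gene length, as the deposited FPKM (fragments scaled to gene length and library size), had a median of 14.8 in the EZH2 shRNA group and 17.6 in the control group. The lowest was PRC1, with a mean of 0.517 FPKM in the EZH2 shRNA group and 0.630 FPKM in the control group. TOP2A was the highest of the 54, with 52.0 FPKM in the EZH2 shRNA group and 70.1 FPKM in the control group.

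**Figure D2:**
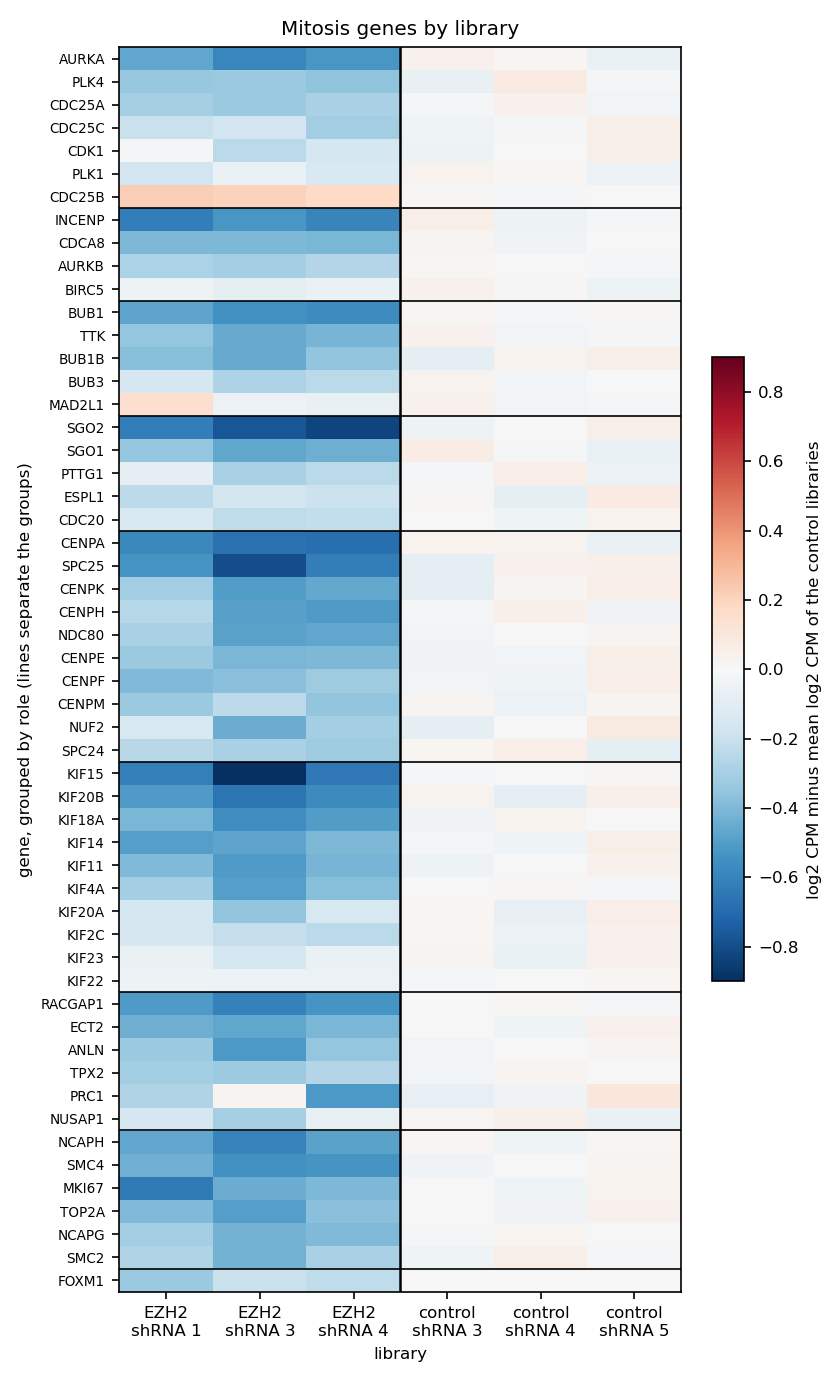
Each row is 1 of the 54 mitosis genes and each column 1 library, EZH2 shRNA left of control; colour gives log2 CPM minus the mean log2 CPM of the 3 control libraries. The 3 EZH2 shRNA columns are blue in nearly every row, with medians of -0.32, -0.42 and -0.37, and CDC25B is red in all 3.

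Of the 7 kinases and phosphatases of mitotic entry, 6 fell and 1 rose, with a median log2 fold change of -0.24. AURKA, the Aurora kinase of centrosomes and spindle poles, had 54.4, 50.0 and 52.3 CPM in the EZH2 shRNA libraries, against 77.5, 76.2 and 72.4 CPM in the controls (log2 fold change -0.53, SE 0.05, adjusted p = 8.99e-08). PLK4, the kinase of centriole duplication, had 56.3, 56.7 and 55.4 CPM with EZH2 shRNA, against 68.4, 75.7 and 70.6 CPM in the controls (-0.35, SE 0.05, adjusted p = 7.96e-06). Neither gene's groups overlapped. The 3 phosphatases that activate CDK1 went different ways. CDC25A, which also acts at the start of S phase, had 96.1, 93.4 and 96.3 CPM in the EZH2 shRNA libraries, against 117.4, 121.0 and 115.9 CPM in the controls (-0.31, SE 0.04, adjusted p = 5.58e-06). CDC25B, which starts the activation of CDK1 at centrosomes, had 69.7, 69.0 and 67.6 CPM with EZH2 shRNA, against 60.2, 59.2 and 59.8 CPM in the controls (0.20, SE 0.04, adjusted p = 0.000608). All 3 EZH2 shRNA libraries were above all 3 controls for CDC25B. Its 40 neighbouring expressed genes on chromosome 20 had a median of 0.21, and with such window medians removed CDC25B was at -0.01 (adjusted p = 0.914).

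CDC25C fell by 0.24 on the log2 scale, but FAM53C, which overlaps it on the other strand, had 525% of its counts, and its call ended without EZH2 shRNA library 4 (adjusted p = 0.0888) or control library 5 (0.0648). The central kinases CDK1 and PLK1 were close to the threshold. CDK1 had 124.3, 106.4 and 112.4 CPM in the EZH2 shRNA libraries and 121.7, 125.4 and 130.4 CPM in the controls, groups that overlap through EZH2 shRNA library 1 (log2 fold change -0.14, SE 0.05, adjusted p = 0.0397). Of 18 alternatives 11 ended the call of CDK1, among them leaving out EZH2 shRNA library 3 (0.0764) or 4 (0.135), or control library 3 (0.0507), 4 (0.0852) or 5 (0.158). PLK1 was at -0.12 (SE 0.04, adjusted p = 0.0305), and 8 alternatives ended its call, among them leaving out EZH2 shRNA library 4 (0.112) or control library 3 (0.123) or 4 (0.0976).

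Of the 4 subunits of the chromosomal passenger complex, which corrects faulty attachments and directs cytokinesis, 3 fell and 1 did not pass (median -0.35). INCENP, its scaffold, had 67.1, 71.8 and 68.3 CPM in the EZH2 shRNA libraries, against 107.1, 100.5 and 103.0 CPM in the controls (log2 fold change -0.58, SE 0.04, adjusted p = 1.2e-08). INCENP lies on chromosome 11, and with chromosome medians removed it was at -0.31. CDCA8, the centromere-targeting subunit borealin, had 85.2, 85.0 and 84.8 CPM with EZH2 shRNA, against 115.0, 110.6 and 112.9 CPM in the controls (-0.41, SE 0.04, adjusted p = 2.15e-07). AURKB, the catalytic subunit, had 45.4, 44.7 and 46.0 CPM with EZH2 shRNA, against 55.9, 55.3 and 54.9 CPM in the controls (-0.29, SE 0.04, adjusted p = 3.55e-05). The groups of these 3 genes did not overlap. BIRC5 (survivin) had 88.5, 86.1 and 87.7 CPM with EZH2 shRNA, against 94.0, 92.2 and 88.5 CPM in the controls, and did not pass (-0.07, adjusted p = 0.199). AURKB and BIRC5 lie on chromosome 17, whose expressed genes had a median of 0.15. With chromosome medians removed BIRC5 was at -0.22 (adjusted p = 0.000341) and AURKB at -0.44.

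Of 5 spindle checkpoint genes 4 fell (median -0.40, and -0.24 with chromosome medians removed). The second median is the value of BUB1. With chromosome medians removed TTK was at -0.37, BUB1B at -0.38, BUB3 at -0.18 and MAD2L1 at 0.08. BUB1, a checkpoint kinase of the kinetochore, had 75.0, 71.2 and 70.2 CPM in the EZH2 shRNA libraries, against 104.7, 103.0 and 104.7 CPM in the controls (-0.53, SE 0.04, adjusted p = 2.1e-08). BUB1 lies on chromosome 2 and was at -0.24 with chromosome medians removed. TTK (MPS1), the kinase at the head of the checkpoint, had 56.0, 51.8 and 53.2 CPM with EZH2 shRNA, against 73.2, 70.2 and 70.3 CPM in the controls (-0.41, SE 0.04, adjusted p = 1.13e-06). BUB1B (BUBR1), part of the complex that holds back the APC/C, had 71.0, 67.4 and 72.4 CPM with EZH2 shRNA, against 87.7, 94.5 and 96.0 CPM in the controls (-0.40, SE 0.05, adjusted p = 1.92e-06). All 3 were without overlap. BUB3, their partner, fell by 0.23 on the log2 scale. MAD2L1, which encodes MAD2 of the same inhibitory complex, did not pass, with 91.8, 79.6 and 79.0 CPM in the EZH2 shRNA libraries and 85.1, 81.2 and 81.8 CPM in the controls. Its log2 fold change was 0.01 (SE 0.05, adjusted p = 0.882), with EZH2 shRNA library 1 above and libraries 3 and 4 below all controls, and without library 1 it was at -0.07 (adjusted p = 0.167).

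All 5 genes of anaphase and cohesion release fell (median -0.21). SGO2, a shugoshin that guards centromeric cohesin, fell most of all 54 genes, with 20.3, 18.3 and 17.6 CPM in the EZH2 shRNA libraries, against 30.6, 31.4 and 32.7 CPM in the controls (-0.76, SE 0.06, adjusted p = 5.51e-08). KCTD18 on the other strand had 39.1% of its counts, and with chromosome 2's median removed SGO2 was at -0.46. Its relative SGO1, on chromosome 3, had 13.1, 11.9 and 12.2 CPM with EZH2 shRNA, against 17.5, 16.6 and 16.0 CPM in the controls (-0.43, SE 0.07, adjusted p = 8.99e-05). CDC20, the APC/C activator and checkpoint target, had 109.0, 102.2 and 102.8 CPM with EZH2 shRNA, against 120.1, 116.9 and 122.5 CPM in the controls (-0.19, SE 0.04, adjusted p = 0.000895). Each of these genes had all EZH2 shRNA libraries below all controls. The protease ESPL1 (separase) and its inhibitor PTTG1 (securin) fell by near equal amounts, 0.20 and 0.21 on the log2 scale, and PTTG1 lost its call with window medians removed (adjusted p = 0.0824).

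All 10 centromere and kinetochore genes fell (median -0.40), from the centromeric histone to the microtubule-binding outer layer. SPC25, of the NDC80 complex that grips microtubules, had 22.7, 18.8 and 21.2 CPM in the EZH2 shRNA libraries, against 31.1, 33.9 and 34.1 CPM in the controls (-0.66, SE 0.07, adjusted p = 6.33e-07). CENPF, a large protein of the outer kinetochore, had 175.8, 178.6 and 185.3 CPM with EZH2 shRNA, against 227.4, 225.7 and 241.9 CPM in the controls (-0.36, SE 0.04, adjusted p = 1.69e-06). CENPA, the histone H3 variant that marks centromeres, had 8.92, 8.32 and 8.28 CPM with EZH2 shRNA, against 13.87, 13.87 and 12.99 CPM in the controls (-0.68, SE 0.08, adjusted p = 1.84e-06). No groups overlapped. CENPA and SPC25 lie on chromosome 2 and were at -0.38 and -0.37 with chromosome medians removed, and SLC35F6, with 124% of the counts of CENPA, overlaps it on the same strand. All 4 NDC80 complex genes fell, NDC80 by 0.41, NUF2 by 0.30 and SPC24 by 0.29 on the log2 scale beside SPC25. The counts of SPC24 are less certain than those of the other 3. The inner kinetochore genes CENPH, CENPK and CENPM fell by 0.43, 0.44 and 0.31, and the kinetochore motor CENPE by 0.39.

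Of 10 kinesins 8 fell (median -0.42). KIF20B, a motor of late mitosis and cytokinesis, had 60.4, 54.7 and 57.8 CPM in the EZH2 shRNA libraries, against 88.6, 81.9 and 89.1 CPM in the controls (-0.59, SE 0.05, adjusted p = 4.81e-08). KIF11 (Eg5), which pushes the spindle poles apart, had 123.6, 114.2 and 121.7 CPM with EZH2 shRNA, against 157.7, 163.4 and 167.3 CPM in the controls (-0.44, SE 0.04, adjusted p = 2.51e-07). KIF14, which works in cytokinesis, had 48.5, 49.4 and 51.7 CPM with EZH2 shRNA, against 68.0, 66.8 and 71.2 CPM in the controls (-0.46, SE 0.05, adjusted p = 3.45e-07). These 3 were without overlap. KIF15, which backs up KIF11 in keeping the spindle bipolar, fell by 0.72 on the log2 scale, and TMEM42 on the same strand had 17.2% of its counts. KIF18A, which dampens chromosome movements, fell by 0.51, and by 0.24 with the median of chromosome 11 removed. KIF4A, a chromosome-bound motor, fell by 0.40. The microtubule depolymerase KIF2C fell by 0.21. KIF20A, which carries the passenger complex to the midzone, fell by 0.22, with BRD8 and CDC23 opposite it at up to 225% of its counts, and lost its call without control library 5 (adjusted p = 0.0556). KIF22, a chromosome-arm motor, was at -0.05 (adjusted p = 0.277) although its EZH2 shRNA libraries were all below its controls. KIF23, the motor of centralspindlin, was at -0.09 (adjusted p = 0.124).

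Among 6 genes of spindle assembly and cytokinesis 4 fell (median -0.35). RACGAP1, the partner of KIF23 in centralspindlin, had 67.6, 63.0 and 66.5 CPM in the EZH2 shRNA libraries, against 96.2, 97.3 and 96.0 CPM in the controls (-0.55, SE 0.04, adjusted p = 1.46e-08). ECT2, the RhoA exchange factor recruited by centralspindlin, had 27.8, 27.2 and 28.4 CPM with EZH2 shRNA, against 37.9, 36.8 and 38.8 CPM in the controls (-0.44, SE 0.05, adjusted p = 1.97e-06). TPX2, which activates Aurora A on the spindle, had 160.2, 158.7 and 165.9 CPM with EZH2 shRNA, against 195.9, 202.5 and 200.1 CPM in the controls (-0.30, SE 0.04, adjusted p = 5.52e-06). All 3 were without overlap, and the cleavage furrow scaffold ANLN fell by 0.40. The microtubule bundlers NUSAP1 and PRC1 were at -0.17 (adjusted p = 0.0841) and -0.29 (0.143). PRC1, here the cytokinesis protein and not the Polycomb complex, shares its locus with AC068831.7 on the same strand, which had 269% of its counts, and PRC1-AS1 on the other, and without EZH2 shRNA library 3 it fell by 0.49 (adjusted p = 0.011).

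The 6 genes of condensin and chromosome structure all fell (median -0.46). SMC4, an ATPase arm of condensin, had 168.0, 154.9 and 156.7 CPM in the EZH2 shRNA libraries, against 221.7, 227.6 and 230.7 CPM in the controls (-0.50, SE 0.04, adjusted p = 4.49e-08). NCAPH, which closes the condensin I ring, had 98.4, 89.7 and 97.5 CPM with EZH2 shRNA, against 138.0, 132.8 and 137.9 CPM in the controls (-0.52, SE 0.04, adjusted p = 6.15e-08). It lies on chromosome 2 and was at -0.22 with chromosome medians removed. TOP2A, the topoisomerase that untangles sister chromatids, had 340.3, 316.9 and 344.9 CPM with EZH2 shRNA, against 445.8, 437.0 and 460.8 CPM in the controls (-0.42, SE 0.04, adjusted p = 5.96e-07). No groups overlapped in these 3 genes. The other condensin arm SMC2 fell by 0.33, the condensin I subunit NCAPG by 0.38 and the chromosome surface protein MKI67 (Ki-67) by 0.49. FOXM1, the forkhead factor that activates G2 and mitosis genes, had 123.9, 135.6 and 133.0 CPM in the EZH2 shRNA libraries, against 156.5, 156.0 and 155.9 CPM in the controls (-0.25, SE 0.04, adjusted p = 8.17e-05). Its groups did not overlap, and RHNO1 and ITFG2 on the other strand had up to 32.1% of its counts.

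**Figure D3:**
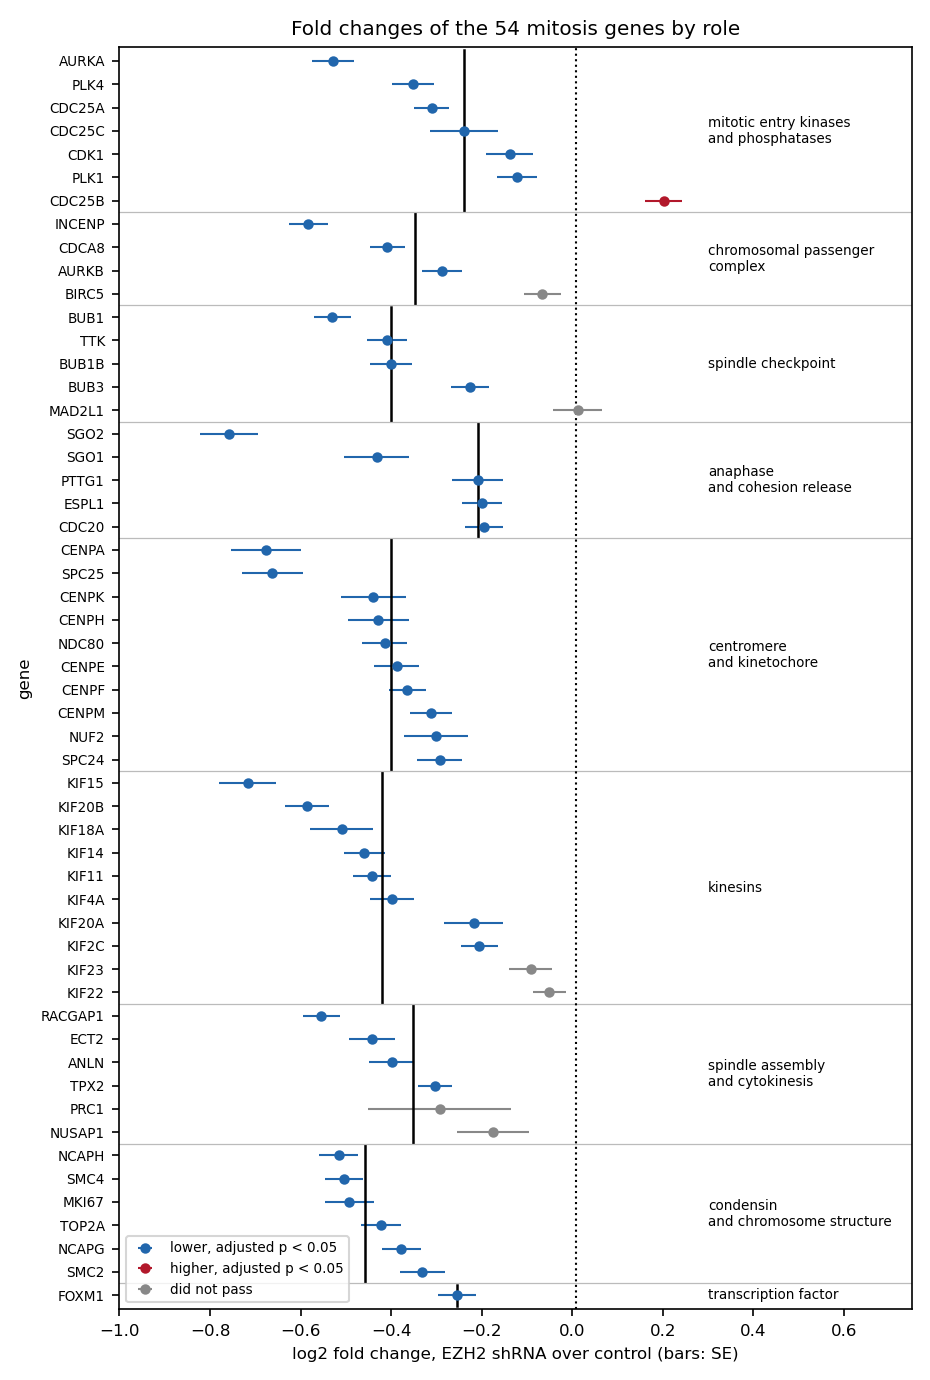
Log2 fold change of each of the 54 genes, EZH2 shRNA over control, with its SE, grouped by role; short vertical lines are group medians and the dotted line the median of all genes tested (0.01). The medians run from -0.46 for condensin and chromosome structure to -0.21 for anaphase and cohesion release, and only CDC25B lies to the right as a rise.

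The proportion between related genes was compared for 2 pairs, chosen after their values were seen. The log2 ratio of RACGAP1 to KIF23 was 0.31, 0.30 and 0.28 in EZH2 shRNA libraries 1, 3 and 4, against 0.73, 0.83 and 0.71 in control libraries 3, 4 and 5, a difference of -0.46. For CDC25A to CDC25B it was 0.46, 0.44 and 0.51 in the EZH2 shRNA libraries, against 0.96, 1.03 and 0.96 in the controls, a difference of -0.51. Since the pairs were picked for these differences, they are a description with no test. With window medians removed the fold changes were -0.34 for CDC25A and -0.01 for CDC25B, and -0.55 for RACGAP1 and -0.14 for KIF23, so the distance within the pair of phosphatases was smaller.

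The median fold change differed between chromosomes, so each gene was also read against the median of its chromosome. These are medians of RNA levels, and their cause was not tested. Expressed genes had a median log2 fold change of -0.29 on chromosome 2 and -0.27 on chromosome 11, where 49.5% and 48.5% of genes tested fell, and of 0.15 on chromosome 17 and 0.20 on chromosome 13. The 54 genes lie on 19 chromosomes. BUB1, SGO2, CENPA, SPC25 and NCAPH on chromosome 2 and INCENP and KIF18A on chromosome 11 all fell, with a median of -0.58, and made up 7 of the 12 genes at or below -0.5. With chromosome medians removed all 7 still passed, at a median of -0.31. On chromosome 17 are AURKB, BIRC5 and TOP2A, and none of the 54 is on chromosome 13. The 44 genes off these 4 chromosomes held 38 falls and 1 rise at a median of -0.34, against 20.4% falls and 24.1% rises among all genes tested there. With chromosome medians removed 47 of the 54 genes fell and 1 rose (median -0.33, against 20.8% and 23.5% of all genes), CDK1 losing its call (adjusted p = 0.162) and BIRC5 gaining one. With medians of 40-gene windows removed 47 fell and 0 rose (median -0.31, against 21.1% and 23.8% of all genes).

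**Figure D4:**
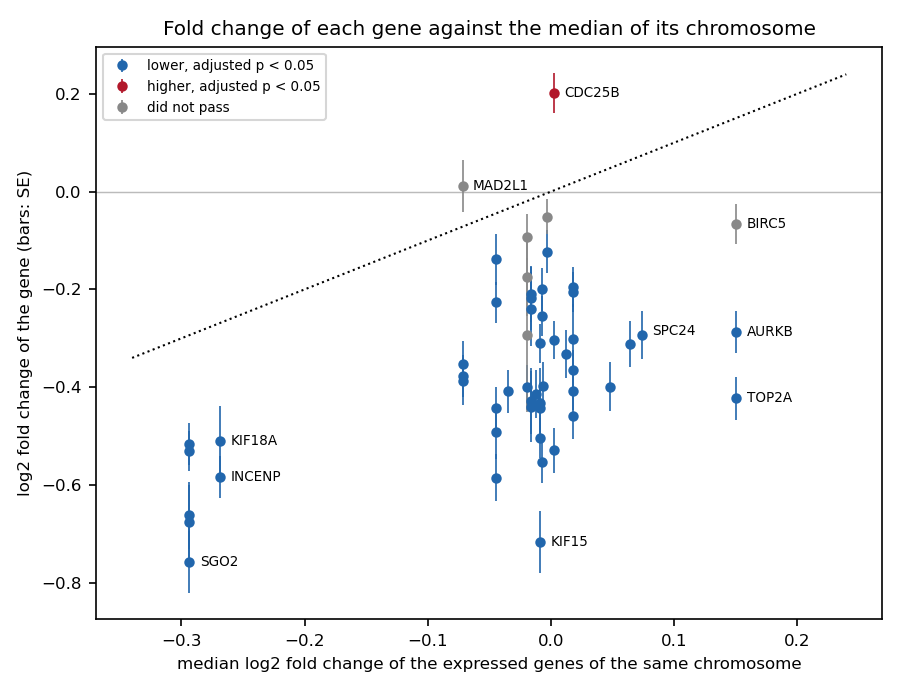
Log2 fold change of each of the 54 genes with its SE (vertical axis) against the median log2 fold change of the expressed genes of its chromosome (horizontal axis); on the dotted line both are equal. The chromosome 2 and 11 genes sit at medians of -0.29 and -0.27 and still lie below the line, while CDC25B and MAD2L1 lie above it.

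Genes of the same machinery outside the list were read from the same fit, in which 22.9% of all genes tested fell and 23.8% rose. Among 29 other kinetochore genes 17 fell and 3 rose (median -0.19). HJURP, the chaperone that loads CENPA, fell by 0.77 and CENPI by 0.68 on the log2 scale, and CENPX, on chromosome 17 with LRRC45 opposite at 89.3% of its counts, rose by 0.60. Of 17 other condensin and cohesin genes 13 fell and 0 rose (median -0.19), led by CDCA5 (sororin) at -0.71, NCAPD3 at -0.50, with VPS26B opposite at 38.2% of its counts, and ESCO2 at -0.51, with CCDC25 and PBK opposite at up to 115%. Of 30 other spindle and centrosome genes 21 fell and 2 rose (median -0.26). CKAP2L, a spindle protein of chromosome 2, fell by 1.22, the microtubule polymerase CKAP5 by 0.66 and the spindle pole protein NUMA1 by 0.55. Among 18 measured of 19 other regulators of mitotic entry and exit 10 fell and 2 rose (median -0.20), with the CDK1 inhibitor kinase WEE1 at -0.59, cyclin A2 (CCNA2) at -0.46, with EXOSC9 opposite at 51.2% of its counts, and MELK at -0.41. Of these genes HJURP and CKAP2L lie on chromosome 2 and were at -0.47 and -0.93 with chromosome medians removed. CDCA5, NCAPD3, CKAP5, NUMA1 and WEE1 lie on chromosome 11 and were then at -0.44, -0.23, -0.39, -0.28 and -0.32, all still past the threshold.

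The APC/C marks securin and cyclins for destruction. Of 18 genes, its subunits and E2 enzymes with the coactivator FZR1 and the inhibitor FBXO5, 4 fell (FBXO5 among them) and 5 rose (median 0.07), shares near those of all genes tested (22.9% and 23.8%). ANAPC1, on chromosome 2, fell by 0.38, a call that ended with chromosome medians removed (-0.09, adjusted p = 0.0967). ANAPC11 on chromosome 17, with ALYREF and PCYT2 opposite at up to 561% of its counts, rose by 0.46, and CDC16 on chromosome 13 rose by 0.30; with window medians removed neither passed (adjusted p = 0.0991 and 0.123), and the list then held 2 falls and 1 rise. Of 19 MuvB, DREAM and E2F regulators 7 fell and 4 rose (median -0.06). The repressor E2F8 fell by 0.52 and the E2F partner TFDP2 rose by 0.38, while the rise of TFDP1 on chromosome 13 by 0.28 did not pass with chromosome medians removed (0.08, adjusted p = 0.112). Of 8 measured among 10 tubulins 5 fell and 2 rose (median -0.35). TUBA4A fell by 0.84, with STK16 and TUBA4B opposite at up to 33.7% of its counts, and TUBA1A fell by 0.51, with TUBA1C, a close relative, opposite at 96.7%. TUBB2A rose by 1.64 to a mean of 5.24 CPM, against 1.65 CPM in the controls, and tubulin genes are alike enough to share reads. Of 46 DNA replication genes, which act before mitosis, 33 fell and 1 rose (median -0.25), with LIG1 at -0.83, RRM2 at -0.82 and ORC1 at -0.58. With chromosome medians removed E2F8, on chromosome 11, was at -0.25, and TUBA4A and RRM2, on chromosome 2, were at -0.55 and -0.53, each still past the threshold.

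**Figure D5:**
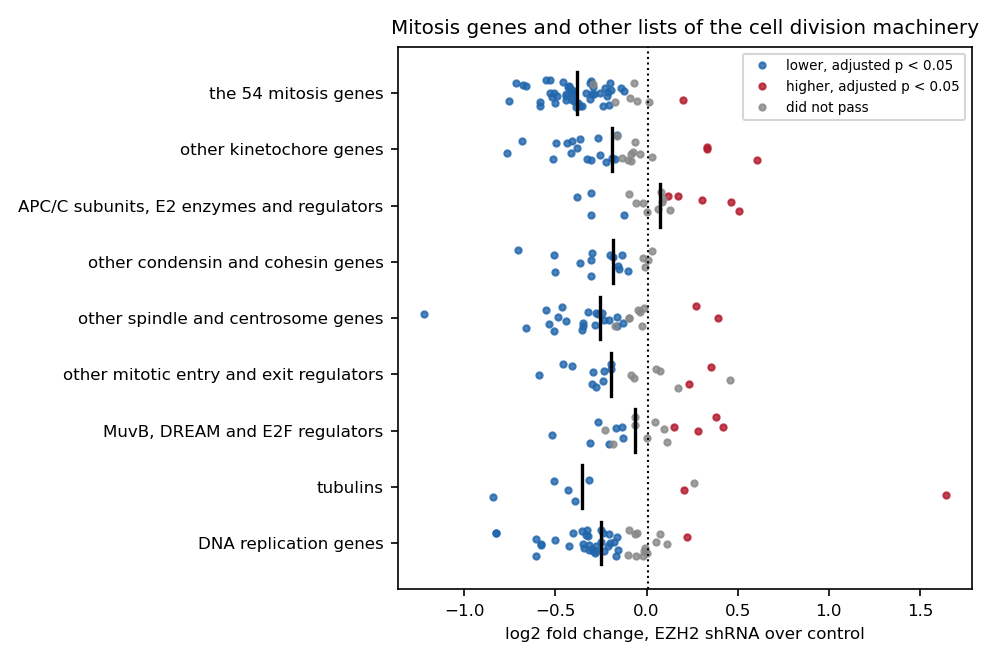
Log2 fold changes, EZH2 shRNA over control, of the 54 mitosis genes and of 8 other lists of the division machinery; each point is a gene, black lines are medians and the dotted line is the median of all genes tested. Medians run from -0.38 for the 54 genes to 0.07 for the APC/C.

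Markers of other blood cell types were read in the same libraries. All 7 eosinophil markers rose, and their sum was between 382 and 408 CPM in the EZH2 shRNA libraries and between 160 and 163 CPM in the controls. Of 8 monocyte and macrophage markers 3 were measured, 2 higher and 1 lower, with sums between 20.6 and 24.1 CPM in the EZH2 shRNA libraries and between 8.73 and 10.5 CPM in the controls. CD14, a defining monocyte marker, averaged 0.03 CPM in the EZH2 shRNA libraries and 0.05 CPM in the controls. Of 8 mature neutrophil markers 2 were measured and neither passed, with sums between 28.4 and 32.5 CPM in the EZH2 shRNA libraries and between 26.7 and 31.9 CPM in the controls and LCN2 and MMP8 at 0. Lymphocyte markers (2 of 8 measured, neither passed) summed to between 15.8 and 16.4 CPM in the EZH2 shRNA libraries, against 13.6 to 14.7 CPM in the controls. MS4A1 was at 0 in all libraries. Stromal and epithelial markers (3 of 8 measured, KRT8 higher) summed to between 2.91 and 3.66 CPM in the EZH2 shRNA libraries, against 1.11 to 1.70 CPM in the controls, with COL1A2, EPCAM and CDH5 at 0. Their part in the fall of the mitosis genes was not tested.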

How the data were processed

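RNA was sequenced as single reads of 50 bases from polyadenylated RNA with a stranded kit, per the labels' protocols. Per the submitters' processing notes, R 3.6.1, DESeq2 1.24.0, STAR 2.5.2b and Picard 2.18.24 were used with GRCh38 (hg38). How reads were counted (program, annotation, use of strand) is not given in the sources used here, so genes that overlap on opposite strands may share reads. The authors deposited raw counts per gene without normalization, and FPKM values, which are a rescaled form of the same counts: for 29060 of 29060 genes with a value they returned a whole-number gene length within 0.01 in every library.

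Computed here were TMM-scaled CPM and the quasi-likelihood test of edgeR 4.0.16 (R 4.3.3; filterByExpr, robust, group as the only term), with Benjamini-Hochberg adjustment over 16859 genes at 0.05. SE is the size of the log2 fold change divided by the square root of F. Alternatives used limma 3.58.1, DESeq2 1.42.0, other scalings and filters, and offsets removing the median of each chromosome or 40-gene window (genes above a mean log2 CPM of 2). The fits were also run on simulated counts with few changed genes and no shifts of chromosome medians. That run does not show how they perform on data with many changes and such shifts. No replicate pair agreed within sampling noise (chi-square per degree of freedom 3.18 to 17.3). The members and lists were chosen with earlier results of these data known. Full values are given for up to 3 genes with the smallest p per role and for any gene that rose, and up to 3 genes are named from each other list. Some results that these rules would name are not reported here.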

Additional observations from a re-analysis of the deposited data

How the results depend on the processing

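Of the 47 genes that fell, 41 kept the call under all 18 alternatives and 6 lost it in at least 1 (CDK1, PLK1, CDC25C, PTTG1, NUF2 and KIF20A). Leaving out each library gave between 44 and 47 falls, 1 rise throughout, a median between -0.42 and -0.37, and an EZH2 log2 fold change between -0.95 and -0.88. Other scalings, filters and tests gave between 42 and 47 falls. EZH2 was at -0.95 with chromosome medians removed and at -1.27 with window medians removed. The median of the 54 genes was -0.33 with chromosome medians removed and -0.31 with window medians removed, where 0 genes rose and CDC25B was at -0.0065. MAD2L1 turned negative with library size only (-0.0022) and with the title number as replicate block (-0.068), and leaving out each library gave it between -0.069 (without EZH2 shRNA library 1) and 0.050 (without EZH2 shRNA library 4), with -0.0015 without control library 4. Window medians also gave KIF23 a call (-0.14, adjusted p = 0.0259) and ended that of PLK1 (0.065). The title numbers 3 and 4 occur in both groups. Deviations of libraries sharing a number had correlations of 0.0577 and 0.0586, small but above every other pair between the groups (-0.0491 to 0.0328). Whether the numbers pair the libraries was not tested. The fit with this replicate block gave 47 falls, 1 rise and a median of -0.38. Its contrast rests on the libraries numbered 3 and 4 only, because EZH2 shRNA library 1 and control library 5 had no partner. Unfiltered FPKM ended the call of NUF2 (adjusted p = 0.0597). The causes of these changes were not tested. Small copies in the genome, KIF4B, CDC20P1, PTTG3P and BUB3P1, had 6.62%, 5.92%, 2.81% and 1.59% of the counts of KIF4A, CDC20, PTTG1 and BUB3. Opposite KIF4A and NCAPG, PDZD11 and LCORL had 29.0% and 12.9% of their counts.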
